A study of Drosophila melanogaster with 6 samples.

Results

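Transcripts of the vacuolar ATPase (V-ATPase) and of the lysosomal proteases Cp1, cathD and 26-29-p were followed in larval body wall RNA of Drosophila melanogaster. The genes were taken by name: every row of the count table with a symbol that starts with Vha, and the 3 proteases by their symbols. This gave 29 of 11621 genes, of which 26 belong to the V-ATPase. The annotation used here holds 33 protein-coding genes with such symbols, and the other 7 were not analysed here, so statements on the copies of a subunit concern the copies measured.

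The 3 tumour-bearing samples came from larvae collected 10 days after egg laying, and the 3 control samples came from w1118 larvae at 7 days. Tumour-bearing larvae carried y and w, the recombinase source ey-flp, the act5C>y+>GFP cassette with UAS-RasV12, and FRT82B chromosomes bearing tub-gal80 on one and scrib1 on the other. In this mosaic system ey-flp acts in the eye disc, where it makes clones that are homozygous for scrib1, lose the Gal80 repressor and express RasV12, so the body wall was sampled as host tissue that is itself heterozygous. The cuticles of several larvae, freed of internal organs and labelled as body wall skeletal muscle, were pooled in each sample. Age and genetic background differ together with the tumour, and each library carries its own sequencing lane in the column headers, so the parts of age, background and lane cannot be told apart from that of the tumour. Whether the replicates of a group are separate rearings is not stated, so p-values speak only of how far these samples differ from each other, which may in part be technical. The study set the groups against each other to find genes that change in muscle that wastes under a tumour.

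Total counts ranged from 62617114 to 77801818 in tumour-bearing samples and from 69920428 to 84149121 in control samples. The 20 most abundant genes took 6.82% to 7.78% of the counts in tumour-bearing samples and 23.82% to 33.68% in control samples. Values are therefore given as normalised counts, scaled with TMM factors, which allow for such a difference in composition and lay between 1.33 and 1.44 in tumour-bearing samples and between 0.630 and 0.841 in control samples. The median log2 fold change of all tested genes was 0.007 with TMM and 0.94 when libraries were scaled by total counts, so each direction is given under both scalings where it differs. Transcripts of w, the gene disrupted in w1118, stood at 11102 to 18779 normalised counts in tumour-bearing samples and at 0 to 3.08 in control samples. Of 8 muscle marker genes 5 passed the test and all 5 were lower, with sums of 867534 to 1259087 in tumour-bearing and 2548752 to 10950272 in control samples, and 5 of 8 epidermis and cuticle genes were likewise lower. The muscle genes Act87E, bt and sls did not pass (log2 fold change 0.06, -2.20 and -1.04). Of 8 haemocyte marker genes 7 passed the test and all 7 were higher, with sums of 114139 to 305875 in tumour-bearing and 35377 to 64032 in control samples. Among all genes tested with TMM 23% were lower and 23.8% higher. No muscle, epidermis or haemocyte marker was at 0 in every sample. Control replicate 3 stood apart from the other controls in ple, the tyrosine hydroxylase of cuticle tanning, with 1010695 normalised counts against 424 and 849.5, and it had the lowest muscle sum among the controls. In such bulk samples fewer cells of a type and less RNA per cell cannot be told apart.

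The V-ATPase is a rotary proton pump that acidifies lysosomes, endosomes and secretory vesicles, and in some epithelia also drives transport across the plasma membrane. Its cytosolic V1 sector hydrolyses ATP, its membrane V0 sector carries the protons, and the pump can be switched off by the sectors coming apart. Lysosomal proteases need the acid lumen that the pump provides, both to mature and to degrade the proteins that endocytosis and autophagy deliver.

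The V-ATPase genes fell into 18 broadly expressed subunit genes, with a mean over all 6 samples of at least 1000 normalised counts, and 8 low-count copies. The split was not close. VhaM9.7-c, the lowest of the broadly expressed genes, averaged 1929 normalised counts, and Vha68-3, the highest of the low-count copies, averaged 48.8. Per kilobase of exon the broadly expressed genes spanned 21.4-fold, from Vha36-3 with 1955 to Vha16-1 with 41846 normalised counts per kb. The 8 low-count copies together held 0.0194% to 0.0303% of all V-ATPase counts in tumour-bearing samples and 0.0272% to 0.0341% in control samples.

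**Figure D1:**
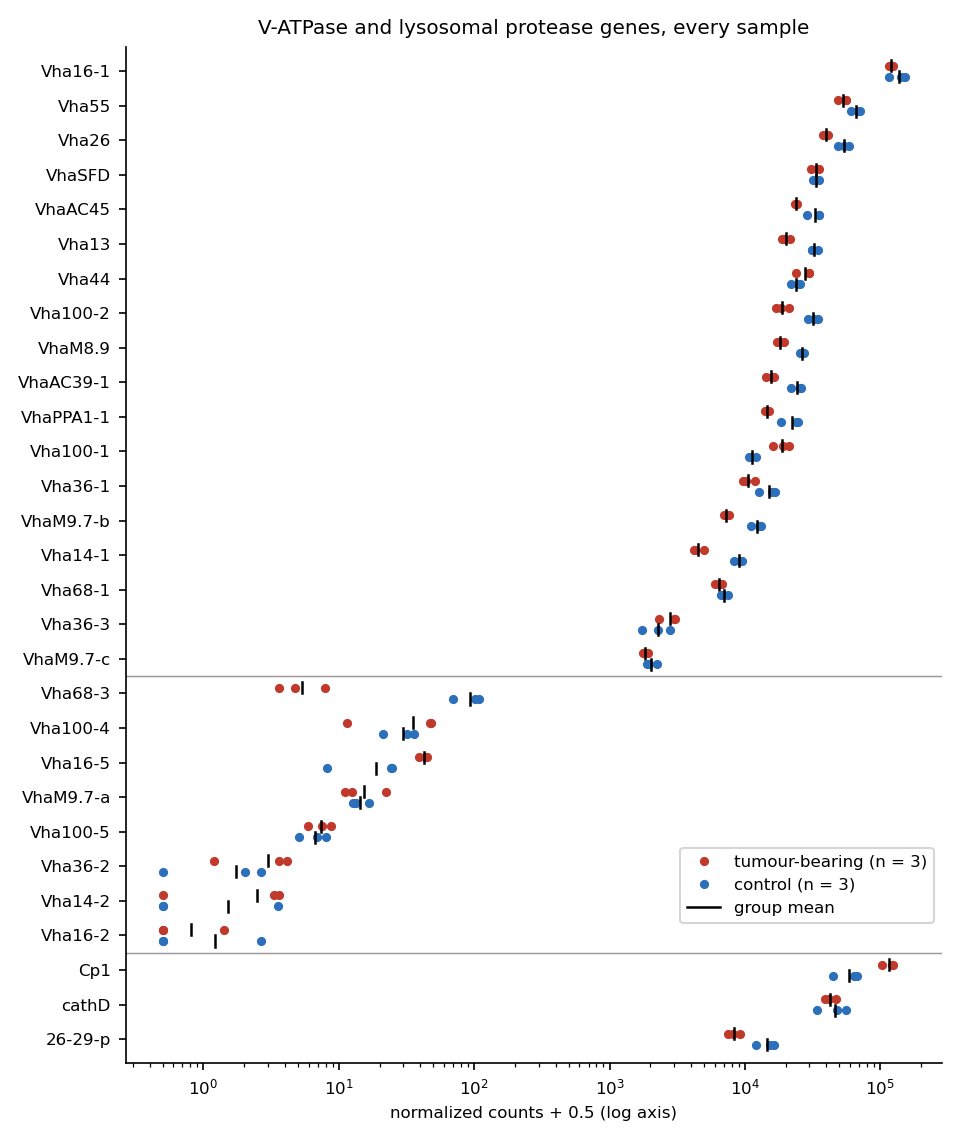
Normalised counts (plus 0.5, log axis) of the 29 genes in every sample, with tumour-bearing samples in red above control samples in blue and a black line at each group mean. Broadly expressed subunits stand at the top, low-count copies in the middle and the proteases at the bottom. Vha100-1 and Cp1 lie higher in all 3 tumour-bearing samples, and Vha14-1 and Vha68-3 lie lower in all 3.

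Of the 29 genes 25 had enough counts to be tested. Scaled with TMM, 9 of the 18 broadly expressed subunit genes were lower in tumour-bearing samples, 1 was higher and 8 did not pass the test (edgeR quasi-likelihood test, Benjamini-Hochberg adjusted p under 0.05), and scaled by total counts 9 of the 18 were higher and 9 did not pass. Among all 10074 genes tested with TMM, 46.8% passed, 23% lower and 23.8% higher, against 50% of the 18 subunits lower and 5.6% higher. With total counts 68.3% of all genes passed, 61.4% higher and 6.9% lower. The median log2 fold change of the 18 genes was -0.44 with TMM and 0.48 with total counts, below the median of all genes under both scalings. A change of scaling moves all genes by nearly the same amount, so the comparison with total counts adds nothing to that with TMM. By the spread of the samples, 11 of the 18 genes had every tumour-bearing sample below every control sample and 1 had every one above, where 29.7% of all tested genes lay apart in the lower and 31.9% in the higher direction. The count of lower calls was 5 of 18 without control replicate 1, tumour-bearing replicate 2 or tumour-bearing replicate 3, and in those fits the share of all genes called lower was also smaller, at 15.4%, 13.4% and 15.7%. It was 7 without control replicate 3, the library that stood apart in ple, where 24.7% of all genes were called lower.

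**Figure D2:**
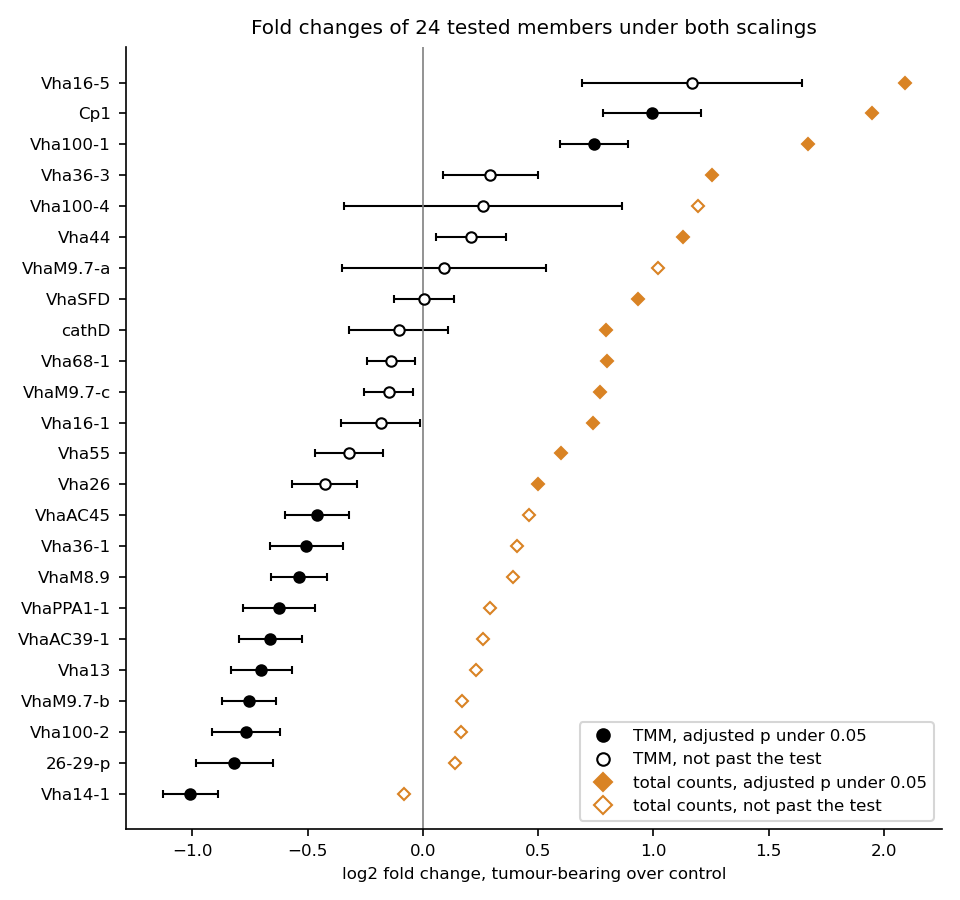
Log2 fold change of tumour-bearing over control samples (horizontal axis) for the tested genes other than Vha68-3, ordered by value. Circles with bars give the TMM estimate with its standard error and orange diamonds the estimate with total counts, filled where the adjusted p was under 0.05. Of the genes drawn only Vha14-1 lies below 0 under both scalings, at -1.01 with TMM and -0.08 with total counts, and most subunits lie below 0 with TMM and above 0 with total counts.

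In the V1 sector, 3 of 9 broadly expressed genes passed the test, all lower with TMM and none past the test in that direction with total counts. This share of 33.3% compares with 46.8% of all genes called in either direction with TMM and 23% called lower. Vha14-1, which encodes subunit F of the central stalk (arm 2R, 15679426 to 15680084, minus strand), had 5016, 4245 and 4215 normalised counts in tumour-bearing samples against 9544, 8359 and 9220 in control samples. It was the subunit with the largest fall among the 18, 2.01-fold lower (log2 fold change -1.01, SE 0.12, adjusted p = 0.00193), and with total counts it did not pass the test (-0.08, adjusted p = 0.707). Vha13, subunit G of the outer stalk, had 21646, 19595 and 18689 normalised counts in tumour-bearing samples and 34711, 31542 and 31258 in control samples. The groups did not overlap in either gene, and Vha13 was 1.63-fold lower with TMM (log2 fold change -0.70, SE 0.13, adjusted p = 0.00791) and did not pass the test with total counts (0.23, adjusted p = 0.248).

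Vha36-1, the main measured copy of the stalk subunit D, averaged 10588 ± 1142 normalised counts in tumour-bearing samples and 15039 ± 2122 in control samples (SD, n = 3 each). Its log2 fold change was -0.51 with TMM (adjusted p = 0.042, edgeR) and 0.41 with total counts (adjusted p = 0.161), and the TMM call was lost without any single library other than control replicate 2 (adjusted p 0.0589 to 0.13).

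The other V1 genes did not pass the test with TMM. Vha55, the nucleotide-binding subunit B, had 55388, 56178 and 48414 normalised counts in tumour-bearing samples against 70384, 60506 and 68913 in control samples (log2 fold change -0.32, adjusted p = 0.123, edgeR). Vha26, the outer stalk subunit E, had 41214, 40537 and 38069 against 58620, 48510 and 53802 in control samples (-0.43, adjusted p = 0.0505). Both genes were lower in every tumour-bearing sample without reaching the threshold, and both were called higher with total counts (0.60 and 0.50). Vha68-1, the only broadly expressed copy of the catalytic subunit A measured here, averaged 6388 ± 383 in tumour-bearing samples and 7027 ± 464 in control samples (SD, n = 3 each). Its groups overlapped (log2 fold change -0.14, adjusted p = 0.314 with TMM, and 0.80, adjusted p = 0.00267 with total counts, edgeR).

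The regulatory V1 subunits C and H, which hold the sectors together or restrain the free V1 sector, stood higher beside the rest. VhaSFD (subunit H) had 34327, 35125 and 30994 normalised counts in tumour-bearing samples against 35260, 31725 and 33216 in control samples, and Vha44 (subunit C) had 29824, 29634 and 23892 against 25572, 21781 and 24798 in control samples. The groups overlapped in both genes, and their log2 fold changes with TMM were 0.004 and 0.21 (adjusted p = 0.985 and 0.298, edgeR). With total counts both were called higher (0.93 and 1.13).

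In the V0 sector, 5 of 7 broadly expressed genes passed the test with TMM, 4 lower and 1 higher, and the lower calls were not made with total counts. Here 57.1% were lower and 14.3% higher, against 23% and 23.8% of all genes. Vha16-1, which encodes the proteolipid c of the rotor ring, had the highest level per kb of the V-ATPase genes. It had 121058, 125279 and 115472 normalised counts in tumour-bearing samples and 152074, 115654 and 143023 in control samples, and these overlapped (log2 fold change -0.18, SE 0.17, adjusted p = 0.408, edgeR). VhaPPA1-1, the c'' proteolipid of the same ring, averaged 14519 ± 524 in tumour-bearing samples and 22387 ± 3432 in control samples (SD, n = 3 each; log2 fold change -0.62, adjusted p = 0.0202 with TMM, and 0.29, adjusted p = 0.282 with total counts). Its call was lost without control replicate 1 or any 1 of the tumour-bearing replicates (adjusted p 0.058 to 0.0753).

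VhaAC39-1, subunit d, which couples the ring to the stalk, averaged 15461 ± 1076 normalised counts in tumour-bearing samples and 24463 ± 2135 in control samples (SD, n = 3 each). It was 1.58-fold lower with TMM (log2 fold change -0.66, adjusted p = 0.0105, edgeR), and its estimate with total counts was 0.26 (adjusted p = 0.269). VhaM9.7-b, the main measured copy of the small membrane subunit e, had 7603, 7013 and 7259 normalised counts in tumour-bearing samples against 12607, 11084 and 13186 in control samples. Every tumour-bearing sample lay below every control sample, and the gene was 1.69-fold lower with TMM (-0.75, SE 0.12, adjusted p = 0.00433), with 0.17 (adjusted p = 0.47) by total counts.

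Both accessory subunits, which sit on the luminal side of V0 and help the pump assemble and travel, were lower with TMM and did not pass the test with total counts. VhaAC45 averaged 24022 ± 434 normalised counts in tumour-bearing samples and 33069 ± 3618 in control samples (SD, n = 3 each). VhaM8.9, the fly relative of the prorenin receptor, averaged 18292 ± 1013 in tumour-bearing samples and 26549 ± 1086 in control samples (SD, n = 3 each). Their log2 fold changes were -0.46 (adjusted p = 0.0372, edgeR) and -0.54 (adjusted p = 0.0151) with TMM, and 0.46 and 0.39 with total counts (adjusted p = 0.0851 and 0.0925). The VhaAC45 call held only when no library or control replicate 2 was left out, and the VhaM8.9 call was lost without control replicate 1, tumour-bearing replicate 2 or tumour-bearing replicate 3 (adjusted p 0.0513 to 0.0639).

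The a subunit, the large V0 protein that lines the proton path and sets where a pump is placed, had copies called in opposite directions with TMM. Vha100-1, known in flies for its role at synapses and in neuronal endosomes, lies on chromosome arm 3R from position 29131193 to 29137980 (plus strand, BDGP6). It had 18971, 21342 and 16254 normalised counts in tumour-bearing samples against 12035, 10646 and 11111 in control samples. Each tumour-bearing sample was above each control sample, a 1.67-fold rise (log2 fold change 0.74, SE 0.15, adjusted p = 0.00938, edgeR) that was larger with total counts (1.67 on the log2 scale, adjusted p = 0.000482). Leaving out each library in turn gave 0.65 to 0.84 and kept the call each time.

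Vha100-2, on the same arm from 18390323 to 18399169 (minus strand), had 18490, 17085 and 21013 normalised counts in tumour-bearing samples against 34616, 29372 and 32309 in control samples. The groups lay apart, and the gene was 1.70-fold lower with TMM (log2 fold change -0.77, SE 0.15, adjusted p = 0.00829, edgeR) and not past the test with total counts (0.17, adjusted p = 0.492). Tumour-bearing replicate 3 was the highest of its group in Vha100-2 and the lowest in Vha100-1.

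The share of each copy within its subunit does not depend on how libraries are scaled. Vha100-1 held 50.6%, 55.5% and 43.6% of the counts of the Vha100-1 and Vha100-2 pair in tumour-bearing samples, against 25.8%, 26.6% and 25.6% in control samples. All 3 tumour-bearing shares exceeded all 3 control shares, by 23.9 percentage points in the mean and by 23.8 points when counts were taken per kb of exon. An exact two-sided permutation test gave p = 0.1, the smallest that 3 against 3 samples allow, and adjusted over the 3 pairs of copies it stayed at 0.1.

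The pairs for subunits D and e differed by less. Vha36-3 held 20.8% ± 1.93 of the counts of subunit D in tumour-bearing samples and 13.4% ± 4.43 in control samples, and VhaM9.7-c held 20.1% ± 1.35 of the counts of subunit e in tumour-bearing samples and 14.2% ± 0.59 in control samples (SD, n = 3 each). Neither pair overlapped between the groups (exact two-sided permutation p = 0.1 each). In all 3 pairs the copy that was rarer in control samples had the higher share in tumour-bearing samples, by 7.40 points in subunit D and 5.91 points in subunit e. VhaM9.7-c averaged 1830 ± 89.8 normalised counts in tumour-bearing samples and 2028 ± 193 in control samples (SD, n = 3 each) and did not pass the test with TMM (log2 fold change -0.15, adjusted p = 0.279, edgeR), while total counts gave 0.77 (adjusted p = 0.0112). Counts of Vha36-3 itself were 3018, 3029 and 2309 in tumour-bearing samples and 2283, 2805 and 1732 in control samples after TMM scaling, overlapping and not past the test (log2 fold change 0.29, adjusted p = 0.283, edgeR), and with total counts it was called higher (1.25, adjusted p = 0.000657).

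**Figure D3:**
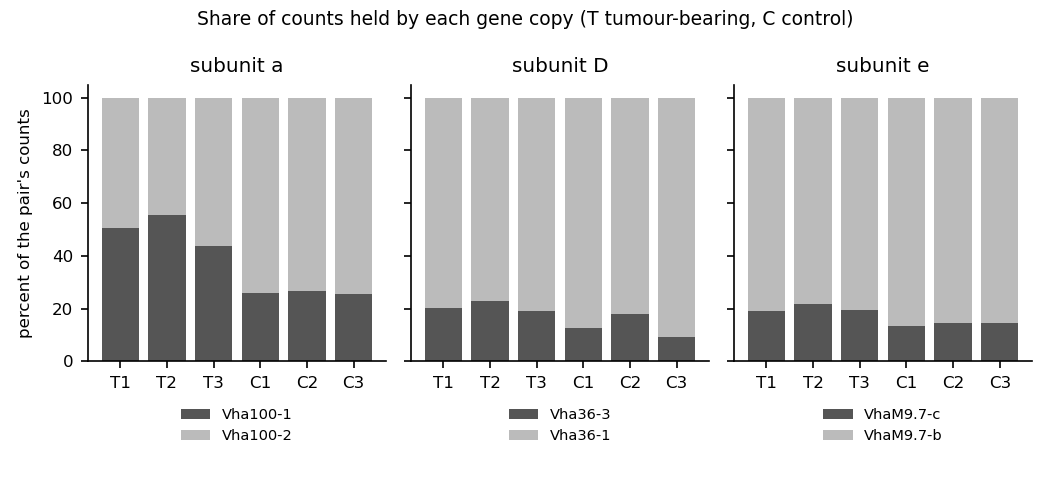
Percent of the counts of each pair of copies (vertical axis) held by the copy in dark and the copy in light grey, for subunits a, D and e, in tumour-bearing samples T1 to T3 and control samples C1 to C3. Vha100-1 holds 43.6% to 55.5% of its pair in tumour-bearing samples, against 25.6% to 26.6% in control samples.

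As Vha100-1 is known from neurons, 5 neuron markers were read beside it. Their summed level was 2682 to 3415 normalised counts in tumour-bearing samples and 1387 to 2132 in control samples. Most of this sum was elav, with 1881 to 2545 in tumour-bearing and 831 to 1515 in control samples. Of 4 neuron markers tested 2, elav and Syt1, were higher (log2 fold change 0.83 and 0.98, adjusted p = 0.0378 and 0.00567, edgeR), where 23.8% of all genes were higher with TMM. The tested markers n-syb and brp did not pass (0.40 and 0.45, adjusted p = 0.138 and 0.278), and VGlut was too rare to test. None of the 5 was at 0 in every sample. The summed level of 4 Malpighian tubule markers, a tissue rich in V-ATPase, was 4565 to 11860 in tumour-bearing samples and 1175 to 4860 in control samples, highest in tumour-bearing replicate 3. Most of this sum was CG31547, with 4433 to 11273 in tumour-bearing and 1092 to 4804 in control samples. These overlapped, and the gene did not pass the test (adjusted p = 0.112, edgeR). Of 3 tubule markers tested only 1, Uro, was called higher, where 23.8% of all genes were higher with TMM. Uro, the urate oxidase that defines this tissue, had 20.2 to 382.3 normalised counts in tumour-bearing samples and 0 to 2.2 in control samples. The part of either in the V-ATPase results was not tested.

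Each broadly expressed subunit was then set against the geometric mean of all 18 within its own sample. No library scaling can change this ratio. The mean, called the complex below, covers only measured genes and leaves out the 7 that were not analysed here. Each gene is part of that mean, so some genes must stand higher by this ratio where others stand lower. In 13 of the 18 genes this ratio lay apart between the groups, higher in 5 and lower in 8. By normalised counts 31.9% of all tested genes lay apart in the higher and 29.7% in the lower direction. The share of all genes that lie apart by this ratio was not computed, so the count is a description. The differences of the group means ran from -0.68 for Vha14-1 to 1.07 for Vha100-1 on the log2 scale, with an SD of 0.44 over the genes. Each of the 13 reached the smallest exact permutation p of 0.1, which this test cannot go below with 3 samples a group, or 0.14 after adjustment over 21 ratios. That p follows from the groups lying apart and adds nothing to it.

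The 5 genes that stood higher against the complex in tumour-bearing samples were Vha100-1, Vha36-3 (0.64), Vha44 (0.54), VhaSFD (0.33) and Vha16-1 (0.16). The value for Vha16-1 was 0.09 without control replicate 2. Relative to the complex, VhaSFD stood at 1.12, 1.19 and 1.12 in tumour-bearing samples and at 0.81, 0.83 and 0.77 in control samples on the log2 scale. Vha44 stood at 0.92, 0.94 and 0.74 in tumour-bearing samples against 0.35, 0.29 and 0.35 in control samples. Both regulatory subunits were therefore higher relative to the complex in every tumour-bearing sample, by more than their spread.

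The 8 genes that stood lower were Vha14-1, Vha100-2 (-0.44), VhaM9.7-b (-0.42), Vha13 (-0.37), VhaAC39-1 (-0.33), VhaPPA1-1 (-0.28), VhaM8.9 (-0.21) and Vha26 (-0.09). Vha14-1 stood at -1.66, -1.86 and -1.76 relative to the complex in tumour-bearing samples and at -1.07, -1.09 and -1.08 in control samples. Vha55 overlapped between the groups, at 1.81 ± 0.05 in tumour-bearing samples and 1.80 ± 0.03 in control samples (SD, n = 3 each; exact permutation p = 1.0).

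By the ratio to the complex both directions occurred among V1 and V0 genes, but this ratio must place some genes higher when others fall. With TMM 0 of the 9 V1 genes and 1 of the 7 V0 genes were called higher (edgeR). VhaSFD stood higher against the complex by 0.33, while its log2 fold change was 0.004 with TMM and 0.93 with total counts. The log2 ratio of the 9 V1 genes to the 7 V0 genes, each taken as a geometric mean, was 0.04 ± 0.08 in tumour-bearing samples and -0.02 ± 0.10 in control samples (SD, n = 3 each). The groups overlapped and the difference of 0.05 was within the spread between replicates (exact two-sided permutation p = 0.6).

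**Figure D4:**
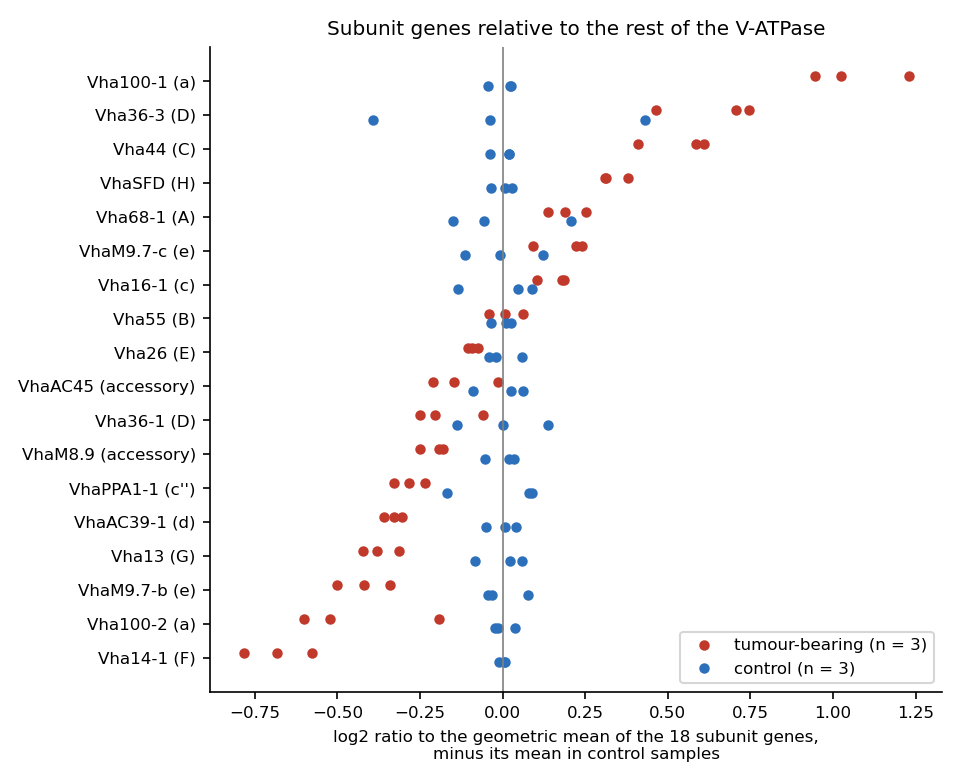
Log2 ratio of each broadly expressed subunit gene to the geometric mean of the 18 genes in the same sample, minus its mean in control samples (horizontal axis), with tumour-bearing samples in red above control samples in blue and the subunit in brackets. Vha100-1 lies farthest to the right and Vha14-1 farthest to the left, with mean differences of 1.07 and -0.68.

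Of the 8 low-count copies, 4 passed the filter on low counts and 1 of these passed the test with TMM. This was 25% of the copies tested, against 46.8% of all genes. Vha68-3, a further copy of the catalytic subunit A, lies on arm 2L from 12978786 to 12981293 (plus strand), 19476 bases from Vha68-1. It had 4.22, 7.35 and 3.10 normalised counts in tumour-bearing samples against 101.5, 68.9 and 107.9 in control samples, from 4 to 8 reads per tumour-bearing library and 43 to 100 reads per control library. The groups were far apart, and the gene was lower under both scalings (log2 fold change -4.27, SE 0.46, adjusted p = 0.00147 with TMM, and -3.37, adjusted p = 0.00166 with total counts, edgeR). Vha68-1 had many times more counts, and how reads that fit both copies were counted is not given in the sources used here.

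Vha16-5, a copy of the ring proteolipid, had 38.72, 44.09 and 42.65 normalised counts in tumour-bearing samples and 7.69, 24.04 and 23.73 in control samples. The groups did not overlap, but the test was not passed with TMM (log2 fold change 1.17, SE 0.48, adjusted p = 0.0894, edgeR) and was passed with total counts (2.09, adjusted p = 0.0117). Vha100-4, a copy of subunit a known from acid-secreting cells of the fly midgut, lies 517 bases from Vha100-2 and had 47.16, 11.02 and 46.53 normalised counts in tumour-bearing samples against 35.36, 20.84 and 31.29 in control samples. These overlapped, as did those of VhaM9.7-a, with 10.6 to 21.7 in tumour-bearing and 12.3 to 16.2 in control samples.

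The other low-count copies were too rare to test. Vha100-5 had 7 to 10 reads per library in tumour-bearing samples and 3 to 7 in control samples. Vha36-2 and Vha14-2 had at most 4 reads in any library, and Vha16-2 at most 2, with 84.5% of its exon bases under an antisense RNA that reads without strand cannot be told from. Apart from Vha100-5 they lay near or under the limit that a count of 0 allows, 3 reads or 2.11 to 4.81 normalised counts per library, so no difference was detectable at this depth.

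The 3 proteases did not move together. Cp1 encodes the fly cathepsin L, a cysteine protease of lysosomes, and lies on arm 2R from 13960675 to 13967981 (plus strand). It had 124648, 122304 and 102902 normalised counts in tumour-bearing samples against 67178, 63870 and 44756 in control samples. The groups lay well apart, and Cp1 rose 1.99-fold (log2 fold change 0.99, SE 0.21, adjusted p = 0.012, edgeR), with a larger estimate by total counts (1.95, adjusted p = 0.000227). Left-out libraries gave 0.81 to 1.10 and kept the call each time, the lowest being without control replicate 3. In the exons of Cp1 13.7% of the bases overlap CG42806 on the same strand.

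cathD encodes cathepsin D, an aspartic protease of lysosomes, on arm 2R from 7815339 to 7823569. It had 47260, 41991 and 39401 normalised counts in tumour-bearing samples against 48281, 34343 and 55728 in control samples. The groups overlapped and the control samples spread more widely (log2 fold change -0.10, SE 0.21, adjusted p = 0.71, edgeR). With total counts it was called higher (0.80, adjusted p = 0.0447).

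26-29-p, a papain-like cysteine protease encoded on arm 3L from 13994231 to 13996571, had 9222, 7550 and 8147 normalised counts in tumour-bearing samples against 15456, 16485 and 11981 in control samples. Every tumour-bearing sample was below every control sample, a 1.76-fold difference with TMM (log2 fold change -0.82, SE 0.17, adjusted p = 0.0102, edgeR) that did not pass the test with total counts (0.14, adjusted p = 0.431). Without control replicate 3 the TMM estimate was -0.96 (adjusted p = 0.0023).

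Within the counts of the 3 proteases, Cp1 took 68.8%, 71.2% and 68.4% in tumour-bearing samples against 51.3%, 55.7% and 39.8% in control samples. The share of 26-29-p was 4.97% ± 0.52 in tumour-bearing samples and 12.3% ± 1.90 in control samples (SD, n = 3 each). The share of cathD was 25.6% ± 0.99 in tumour-bearing samples and 38.8% ± 9.94 in control samples (SD, n = 3 each). All 3 shares lay apart between the groups, free of library scaling (exact two-sided permutation p = 0.1 each). They are parts of 1 whole, so a rise of the Cp1 share lowers the others, and their opposite directions are not independent. Per kb of exon Cp1 averaged 56446 normalised counts in tumour-bearing samples and 28365 in control samples, while Vha16-1 averaged 39195 per kb in tumour-bearing samples and 44497 in control samples. Relative to the geometric mean of the V-ATPase subunits, Cp1 was higher by 1.34 on the log2 scale and 26-29-p lower by 0.48, with groups apart in both, whereas cathD overlapped (0.25, exact permutation p = 0.3). Of the 8 haemocyte markers 7 were higher in the same samples, and their part in the protease levels was not tested.

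Other lysosomal genes were read from lists of the pathway. Counts were found for 22 further proteases and protease inhibitors, of which 11 could be tested, and 1 was higher and 4 were lower with TMM, against 2 and 3 with total counts, which turned the median log2 fold change of -0.35 to 0.55. Among all genes 23.8% were higher and 23% lower with TMM, and 61.4% and 6.9% with total counts. CG6357, a papain-like protease, rose to 4796 ± 933 normalised counts in tumour-bearing samples, against 1169 ± 300 in control samples (SD, n = 3 each; log2 fold change 2.04, adjusted p = 0.00182, edgeR). CG4847, of the same protease class, and cer, an inhibitor that resembles the propeptide of cathepsins, were lower (log2 fold change -5.64 and -2.39, adjusted p = 0.00256 and 0.00395). The directions of these 3 genes were the same with total counts.

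Of 27 tested hydrolases of sugars, lipids and nucleic acids 12 were higher and 4 lower with TMM (median log2 fold change 0.39), and 18 higher and 2 lower with total counts, against 23.8% and 23% of all genes with TMM and 61.4% and 6.9% with total counts. Lip4, a lipase, had 7267, 9919 and 5883 normalised counts in tumour-bearing samples against 44.6, 68.9 and 56.1 in control samples, the largest rise of the lists (log2 fold change 7.09, adjusted p = 0.000307, edgeR). CG12014, an iduronate sulfatase, was higher by 3.67 (adjusted p = 0.0191), a call that was lost without control replicate 1, tumour-bearing replicate 1 or tumour-bearing replicate 2 (adjusted p 0.0518 to 0.058). Without control replicate 3, the control with the highest normalised count of CG12014, the estimate was 5.44 (adjusted p = 0.000107). The beta-galactosidase Gal and the sulfamidase CG14291 were lower (log2 fold change -1.95 and -1.78, adjusted p = 0.00757 and 0.00141), Gal not past the test with total counts (-1.02, adjusted p = 0.0534).

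Of 17 genes of lysosome membrane, transport and fusion 4 were higher and 2 lower with TMM (median log2 fold change 0.03), and 15 higher and 2 lower with total counts, where all genes gave 23.8% higher and 23% lower with TMM and 61.4% and 6.9% with total counts. Lerp, the receptor that sorts hydrolases to lysosomes, and the late endosome GTPase Rab7 rose (log2 fold change 1.35 and 0.86, adjusted p = 0.00223 and 0.00919, edgeR). cln3, the relative of a human gene mutated in Batten disease, had 18.3, 4.59 and 31.0 normalised counts in tumour-bearing samples against 1940, 1170 and 3625 in control samples (-6.94, adjusted p = 0.00184, and -7.57 without tumour-bearing replicate 3). The transporter CG8596 (Cln7) was lower as well (-2.83, adjusted p = 0.00555). Without tumour-bearing replicate 1 or 2 only 2 genes of this list were called higher, where 17.8% and 16.3% of all genes were higher.

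Of 13 genes for V-ATPase assembly and control 2 were higher and 2 lower with TMM, the median was -0.22, and with total counts 12 of the 13 were called higher. Of all genes 23.8% were higher and 23% lower with TMM, and 61.4% higher with total counts. CG5189 (Lamtor2) and CG14812 (Lamtor5), parts of the Ragulator complex that ties the pump to TORC1 signalling, were higher (log2 fold change 0.57 and 0.53, adjusted p = 0.00397 and 0.0186, edgeR), and CG14812 lost its call without control replicate 1, tumour-bearing replicate 2 or tumour-bearing replicate 3. mtd, a TLDc domain gene, and BHD, the fly folliculin, were lower with TMM (-0.54 and -0.27, adjusted p = 0.00974 and 0.0478) and positive with total counts (0.40 and 0.67), and the BHD call was lost whichever library was left out (adjusted p 0.0544 to 0.129). Mitf, the transcription factor that switches on V-ATPase and lysosomal genes in flies, had 5814, 6645 and 5579 normalised counts in tumour-bearing samples against 7257, 7062 and 6842 in control samples. The groups did not overlap, but Mitf did not pass the test with TMM (-0.23, SE 0.11, adjusted p = 0.125), and with total counts it was called higher (0.70, adjusted p = 0.00552).

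**Figure D5:**
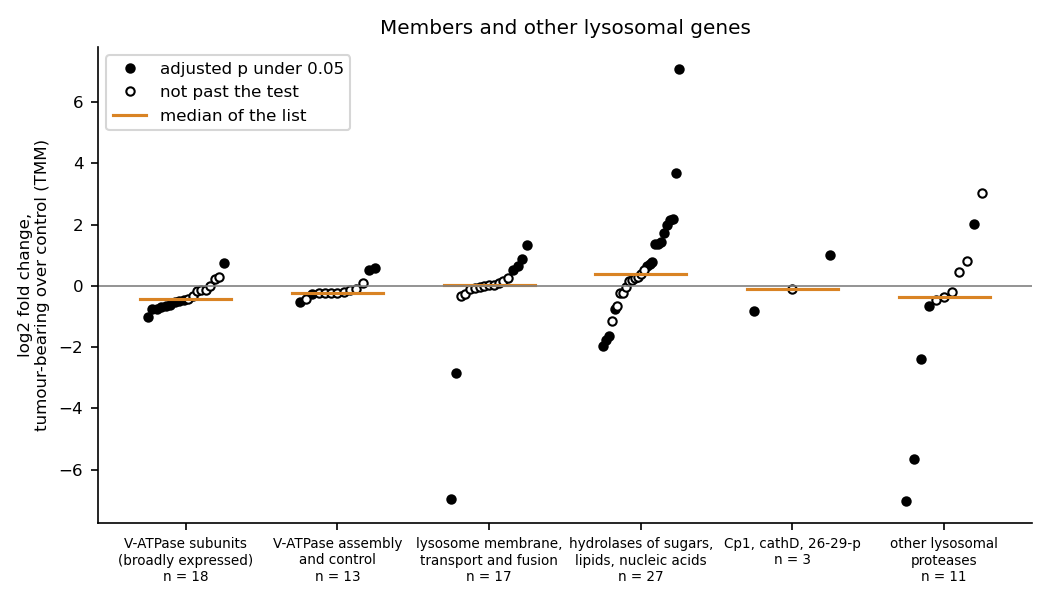
Log2 fold change with TMM scaling (vertical axis) of every tested gene of the broadly expressed V-ATPase subunits, the 3 proteases and the 4 further lists, filled where the adjusted p was under 0.05, with the median of each list as an orange line. The subunits lie within -1.01 and 0.74, with total counts most of them turn positive, and single genes of the other lists reach -6.94 (cln3) and 7.09 (Lip4), with CG17283, which had almost no reads in tumour-bearing samples, lowest of all.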

How the data were processed

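Libraries were made with a kit that does not mark strand (Illumina TruSeq RNA v2) from the 6 samples. Tools listed in the submitters' notes are TopHat and Bowtie, HTSeq, DESeq2, bcl2fastq and FastQC, with BDGP6 as the build. Settings and versions are not given in the sources used here. The authors deposited raw read counts per gene, which are whole numbers, and these were used for every value. The deposited normalized signal (raw counts divided by 1 constant per sample), and the authors' fold change ratio, log2 fold change and p-value columns were not used. All per-sample columns could be matched to samples through the sample titles in their names.

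Counts were tested with edgeR 4.0.16 in R 4.3.3 (filterByExpr, TMM, robust quasi-likelihood fit over 2 groups, Benjamini-Hochberg over 10074 genes, threshold 0.05). A normalised count is the count over the library size times its TMM factor, brought back to count scale with the mean of those products. Standard errors are the fitted log2 fold change divided by the root of the F statistic. Coordinates, exon lengths and overlaps came from an Ensembl annotation of BDGP6, in which all 29 genes were found, 5 of them by symbol. The steps were tested on simulated counts with known changes. That simulation was not given the difference in composition of these libraries, so it does not bear on the choice of scaling. Shares and ratios used an exact two-sided permutation test. The members and gene lists were chosen with earlier results of these data known. Named were all 29 genes and, per further list, the 2 largest changes in each direction past the test with a mean of at least 100 normalised counts, plus Mitf. The ratios of the 3 proteases to the V-ATPase subunits were added after values had been seen. Alternatives were RLE and upper-quartile factors, total counts, DESeq2 1.42.0, other count filters, leaving out the 20 most abundant genes or each sample, a replicate block, a threshold of 0.01 and other minimums for broad expression. No motif search or sequence is given, as no promoter, protein or genome sequence was used here.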

Additional observations from a re-analysis of the deposited data

How the results depend on the processing

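The age, background and composition of the libraries differ between the groups, so a change of the pump in each cell cannot be told from a change of the other transcripts, and with 3 samples a group permutation tests cannot fall below 0.1. Scaling decided the direction of most subunits: with total counts the log2 fold change was 0.74 for Vha16-1, 0.60 for Vha55, 0.50 for Vha26, 0.46 for VhaAC45, 0.23 for Vha13, 0.17 for Vha100-2, 0.39 for VhaM8.9, 0.26 for VhaAC39-1, 0.29 for VhaPPA1-1, 0.41 for Vha36-1, 0.17 for VhaM9.7-b, 0.80 for Vha68-1, 0.77 for VhaM9.7-c, 0.80 for cathD, 0.14 for 26-29-p, 0.40 for mtd, 0.67 for BHD and 0.70 for Mitf. The medians were then 0.60 for the 25 genes tested and 0.48 for the broadly expressed subunits. Counts of higher and lower calls with total counts were 6189 and 695 for all genes, 12 and 1 for the 25 genes, and 9 and 0 for the broadly expressed subunits. They were 2 higher for the other proteases, 2 lower for the hydrolases, 15 higher for the membrane list, and 12 and 0 for the assembly and control list. VhaSFD, near 0 throughout, was -0.016 with RLE factors and -0.011 with DESeq2, and cathD was 0.016 with upper-quartile factors. A threshold of 0.01 left 2514 calls (1317 higher, 1197 lower), 1 higher and 5 lower of the 25 genes, 4 lower subunits, 7 higher hydrolases, 2 higher membrane genes, and 1 in each direction for assembly and control. Of all genes 13.1% were higher and 11.9% lower at that threshold. Upper-quartile factors gave a subunit median of -0.32. Membrane genes called lower numbered 4 with RLE factors, 4 with DESeq2 and 1 where each library had to hold 10 counts. For assembly and control, lower calls numbered 5 with DESeq2 and 1 with upper-quartile factors, no filter or at least 10 counts, and DESeq2 called 2 other proteases higher. Of all genes 23.9% were called lower with RLE factors, 25.2% with DESeq2 and 23.3% with at least 10 counts. The share was 18.9% with upper-quartile factors and 18.6% with no filter, and DESeq2 called 24.5% of all genes higher. Vha26 was called lower with RLE factors and DESeq2 and Vha55 with DESeq2. The cause was not tested for any of these except the scaling itself.

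Samples that share a replicate number between the groups showed weak correlations of their deviations from the group means (-0.06, 0.07 and 0.11). With 3 samples a group these values can neither show nor exclude a pairing. A replicate block gave 7 lower calls among the 25 genes, 5 among the subunits, 2 higher membrane genes and 0 lower assembly and control genes, and not every sample correlated best with its own number. Of all genes 18.9% were called higher and 16.5% lower with the block, against 23.8% and 23% without it. The block did not take the call from Vha100-1, Vha100-2, Vha13, Vha14-1, VhaAC39-1, VhaM9.7-b, Vha68-3, Cp1 or 26-29-p.

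Leaving out each sample in turn gave 3055 to 5138 calls over all genes (1380 to 2548 lower), 7 to 12 lower calls among the 25 genes and 5 to 10 among the subunits, 1 to 2 higher other proteases, 2 to 4 higher membrane genes, and 1 to 2 higher and 1 to 2 lower assembly and control genes. Of all genes 16.3% to 25.1% were called higher and 13.4% to 24.7% lower in these fits. VhaSFD ranged from -0.042 to 0.057, Vha100-4 from -0.019 to 0.68, VhaM9.7-a from -0.30 to 0.28, cathD from -0.29 to 0.033 and the ratio of Vha55 to the complex from -0.017 to 0.036.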

Other observations

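Among the further lysosomal proteases that were too rare or too uneven to test, CG33128, an aspartic protease of the cathepsin D family, had 378.0 and 458.3 normalised counts in tumour-bearing replicates 1 and 3 and 2.76 in replicate 2, and was at 0 in all 3 control samples, which allows up to 3 reads per library. Bace, of the same family, had 1.84 to 7.75 normalised counts in tumour-bearing samples and 427.2 in control replicate 3, with 0 in the other controls.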
